A study of Homo sapiens with 16 samples.

Results

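The 40 genes described here encode the machinery that recognises, remodels and removes mitochondria. They are the entries of the deposited count table whose symbols belong to a named set of mitophagy adaptors and receptors, fusion and fission proteins, deubiquitinases, mitochondrial channels and core autophagy proteins. All 40 were found among 33121 entries, and all 40 were among the 15569 genes with enough counts to be tested. RNA was measured by poly-A selected sequencing in HAP1, a near-haploid human cell line grown in serum-containing medium. The 16 libraries came from 2 experiments, each with 4 knockout and 4 control libraries. In the first, SLC30A10 had been deleted, which encodes a transporter that exports manganese. In the other a different gene had been deleted, and its groups are named here the second knockout and the second control. Both control sets carried the same cell line identifier and each deletion carried its own, so each genotype stands for 1 line. The labels do not say that replicates came from separate cultures, and p-values therefore measure only the spread between these samples.

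Mitochondria are removed selectively by mitophagy, a branch of autophagy in which a membrane grows around the cargo and delivers it to the lysosome. In one route, ubiquitin chains on the outer mitochondrial membrane are bound by soluble adaptors such as OPTN, CALCOCO2 and SQSTM1. In another, receptors that sit in the mitochondrial membrane, such as BNIP3, BNIP3L, FUNDC1, FKBP8 and BCL2L13, bind the ATG8 family proteins of the growing membrane directly. Fusion by the mitofusins and OPA1 and fission by DNM1L set the size of the pieces that can be engulfed.

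Each library held between 16058856 and 16648151 counts. A floor of 3 counts, taken as the limit of detection, was worth 0.181 to 0.187 CPM (counts per 1000000 counts of a library after scaling). Counts of SLC30A10 itself were too low to check its label: the control libraries held 6 to 9 counts and the SLC30A10 knockout 3 to 11. The members were measured far above that limit, between 12.6 CPM for ATG7 and 452 CPM for PHB2 in single libraries. Levels were reproducible: the median coefficient of variation over the members lay between 3.73% and 4.66% in the 4 groups, against 4.11% to 5.42% for all genes at least as highly expressed as the lowest member. BNIP3 was the most variable member in both control sets, with 17.4% in the SLC30A10 control and 23% in the second control. In bulk RNA a lower level per cell and fewer cells expressing a gene cannot be told apart.

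The largest difference among the members concerned BNIP3, a gene known to be induced by low oxygen through hypoxia-inducible factor (HIF). Its upstream sequence is shown because it holds the core letters to which that factor is known to bind. The 160 bases below lie at chr10:131982014-131982173 on the minus strand (RefSeq, build GRCh38.p14), from 250 to 91 bases before the RefSeq start and outside the exons of GENCODE release 29. Capitals mark CACGTG, which reads the same on both strands and holds ACGTG, the only form of the HIF core searched here, on each. CACGTG is also the E-box of other factors.
BNIP3: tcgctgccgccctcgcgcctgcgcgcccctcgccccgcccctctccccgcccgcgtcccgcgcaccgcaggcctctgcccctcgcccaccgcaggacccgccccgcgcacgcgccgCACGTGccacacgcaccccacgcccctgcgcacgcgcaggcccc
ACGTG, searched on both strands in the 250 bases before each start, was present in 14 of the 54 RefSeq promoter entries that matched 36 members (25.9%), in 21.9% of the 15283 entries of tested genes and in 18.5% of all 35116 entries. BNIP3L, FKBP8, RHOT1 and VDAC3 had no entry. CACGTG, which overlaps it, was present in 4 of the 54 (7.41%), in 8.1% of the entries of tested genes and in 6.34% of all. A match describes letters in a window and not a bound site.

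In the SLC30A10 knockout, 18 of the 40 members (45.0%) passed an adjusted p of 0.05 in edgeR's quasi-likelihood test, against 41.4% of all genes tested. Of these, 8 rose (background 21.2%) and 10 fell (background 20.2%). In the second knockout 3 of 40 (7.5%) passed, against 13.7% of all genes, with 1 higher (background 6.67%) and 2 lower (background 7.03%). Both shares lay near or below those of the whole transcriptome. The changes were small. Median absolute log2 fold changes of the members were 0.115 (SLC30A10 knockout) and 0.054 (second knockout), against 0.165 and 0.094 over all tested genes, and no called member reached a fold change of 1.5 in either. The members differed by more between the control sets, with a median absolute log2 fold change of 0.127. Over all tested genes that median was 0.163, near that in the SLC30A10 knockout. Both control sets are labelled as the same cell line. Of the 40 members, 20 differed between them, against 39.3% of all genes, with 6 higher in the SLC30A10 control (background 18.5%) and 14 lower (background 20.8%). With library totals as the only scaling that split became 11 higher and 13 lower. It stayed at 6 and 14 by DESeq2, with the deposited scaling and with the replicate number as a block. With median-of-ratios scaling it was 7 and 14.

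**Figure D1:**
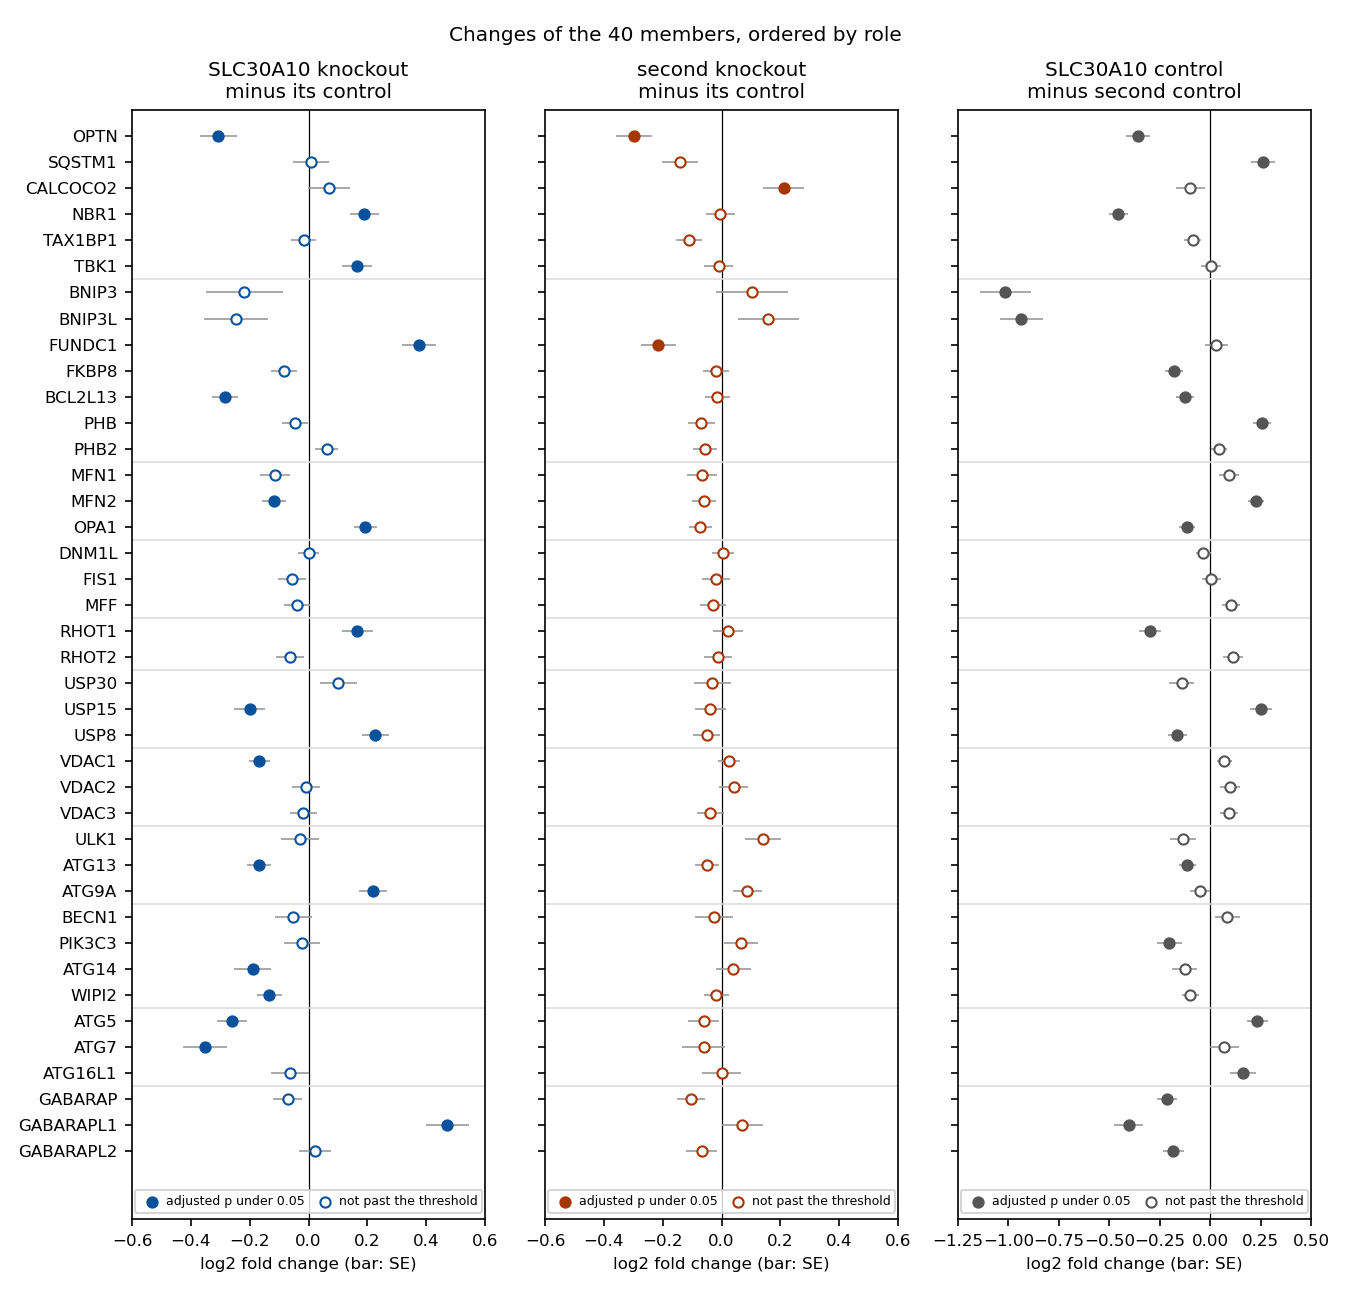
Log2 fold change (points) with its standard error (bars) for the 40 members, ordered by role, in either knockout and between the control sets (SLC30A10 control minus second control, on a wider axis). Filled points passed an adjusted p of 0.05; 18, 3 and 20 members are filled, and BNIP3 and BNIP3L lie farthest from 0 in the comparison of control sets.

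The ubiquitin-binding adaptors were led by OPTN, which links ubiquitin on mitochondria to the ATG8 proteins and was lower in both knockouts. OPTN (10:13099449-13138308, plus strand) stood at 25.9, 23.9, 24 and 26.2 CPM in the SLC30A10 control and at 19.9, 20.2, 20 and 20.7 CPM in the SLC30A10 knockout. It stood at 35.1, 32.6, 31.2 and 29.5 CPM in the second control and at 25.2, 27.2, 26.8 and 25.2 CPM in the second knockout. Neither knockout overlapped its own control. Its log2 fold change was -0.31 ± 0.063 (SE, edgeR adjusted p = 0.000304) upon SLC30A10 deletion and -0.30 ± 0.060 (edgeR adjusted p = 0.000779) in the second. OPTN was the only member called in the same direction in both. The second knockout lay at the level of the SLC30A10 control, and the control sets differed by -0.36 ± 0.060 (edgeR adjusted p = 4.16e-05). Against both control sets pooled, the fall in the SLC30A10 knockout was -0.50 (edgeR adjusted p = 0.000291), while that in the second was -0.13 and no longer passed (edgeR adjusted p = 0.311).

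CALCOCO2, the adaptor also called NDP52, was called in the second knockout and not in the other, and the difference of the 2 effects did not pass (-0.14 ± 0.101, edgeR adjusted p = 0.303). Its levels there were 60.5, 73.0, 62.9 and 85.7 CPM, against 63.3, 63.5, 58.8 and 58.0 CPM in the control, so that the groups overlapped. The change was 0.21 ± 0.070 (edgeR adjusted p = 0.0443). Without the fourth knockout library, the highest, it was 0.11 (edgeR adjusted p = 0.243). The call was also lost, with the value between 0.19 and 0.23, without knockout replicate 2 or control replicate 2, 3 or 4, and when only the 8 libraries compared were fitted (edgeR adjusted p = 0.121). In the SLC30A10 knockout CALCOCO2 lay between 58.2 and 60.2 CPM, with a change of 0.069 ± 0.072.

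Among the other adaptors, NBR1, which also serves aggregates and peroxisomes, rose by 0.19 ± 0.050 in the SLC30A10 knockout (edgeR adjusted p = 0.00303). Its libraries lay at 142, 150, 147 and 142 CPM there and at 129, 126, 112 and 141 CPM in the control. In the second experiment NBR1 lay at 181, 171, 171 and 175 CPM in the control and at 172, 180, 165 and 179 CPM in the knockout. The control sets differed by -0.455 ± 0.049 (edgeR adjusted p = 1.35e-07), with the SLC30A10 control lower. TBK1, the kinase that phosphorylates OPTN, rose by 0.17 ± 0.050 in the SLC30A10 knockout (edgeR adjusted p = 0.00952), from 37.3 to 40.1 CPM in the control to 42.7 to 45.6 CPM. Of the 20 tested genes nearest to TBK1 on its chromosome, 2 had positive values there (median -0.205). SQSTM1 (p62) and TAX1BP1 did not pass in either knockout. Changes of SQSTM1 were 0.007 ± 0.061 and -0.14 ± 0.062, and 39.8% of its exonic bases lie antisense to MRNIP.

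The membrane receptors BNIP3 and BNIP3L (NIX), related proteins of the outer membrane, showed no call in either knockout and the largest differences between the control sets. BNIP3 (10:131966455-131982013, minus strand) stood at 167, 125, 112 and 138 CPM in the SLC30A10 control and at 349, 292, 199 and 256 CPM in the second control. It stood at 119, 133, 106 and 109 CPM in the SLC30A10 knockout and at 312, 317, 323 and 224 CPM in the second knockout. All 8 libraries of the SLC30A10 experiment lay below all 8 of the second. The control sets differed by -1.02 ± 0.127 (edgeR adjusted p = 1.06e-06). In the SLC30A10 knockout the change was -0.22 ± 0.131 (edgeR adjusted p = 0.19), and in the second knockout it was 0.10 ± 0.123 (edgeR adjusted p = 0.654).

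BNIP3L followed the same order. Its levels were 135, 111, 87.4 and 118 CPM in the SLC30A10 control and 90.5, 110, 88.7 and 90.8 CPM in the knockout. In the second experiment they were 260, 221, 175 and 208 CPM in the control and 257, 260, 249 and 198 CPM in the knockout. The control sets differed by -0.94 ± 0.106 (edgeR adjusted p = 2.48e-07). Changes were -0.25 ± 0.110 in the SLC30A10 knockout (edgeR adjusted p = 0.074) and 0.16 ± 0.103 in the second (edgeR adjusted p = 0.353). These opposite values differed by -0.41 ± 0.150 in the test of the difference itself (edgeR adjusted p = 0.041). That call is weak: DESeq2 gave the difference an adjusted p of 0.122, and edgeR no longer called it when any of 11 of the 16 libraries was left out. These were SLC30A10 control replicates 1 and 4, SLC30A10 knockout replicates 1, 3 and 4, second control replicates 2, 3 and 4 and second knockout replicates 1, 2 and 3. The smallest value among them was -0.31, without SLC30A10 control replicate 1 (edgeR adjusted p = 0.122). Across the 16 libraries BNIP3 varied 3.31 times between the lowest and the highest and BNIP3L 2.98 times, while the ratio of BNIP3 to BNIP3L stayed between 1.13 and 1.34.

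Values of other genes known to be raised by low oxygen are given beside this pair. A list of 12 such genes was chosen after the values of BNIP3 had been seen, and 11 were tested (ANKRD37, VEGFA, PDK1, NDRG1, ADM, KDM3A, EGLN1, EGLN3, P4HA1, SLC2A1 and DDIT4). All 11 had lower values in the SLC30A10 control than in the second control, with a median log2 difference of -0.68. All 11 also had negative values in the SLC30A10 knockout (median -0.37), and 8 of 11 had positive values in the second knockout (median 0.12). Of the 11, 9 passed an adjusted p of 0.05 between the control sets (all genes 39.3%) and 6 in the SLC30A10 knockout (all genes 41.4%) by edgeR. All of these calls were lower, against backgrounds of 20.8% and 20.2% for calls in that direction. The second knockout had 0 by edgeR (all genes 13.7%) and 0 by DESeq2, with 2 at an unadjusted p under 0.05. In each library the median of the list, relative to each gene's mean, ran from -0.75 to -0.09 in the SLC30A10 experiment and from 0.14 to 0.67 in the second. The library with the lowest BNIP3 in the second knockout, replicate 4, also had the lowest list median there, 0.26. HIF1A, which encodes the oxygen-regulated subunit of HIF, was not called in any comparison, with a log2 difference of 0.068 between the control sets. The part of oxygen in these differences was not tested.

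**Figure D2:**
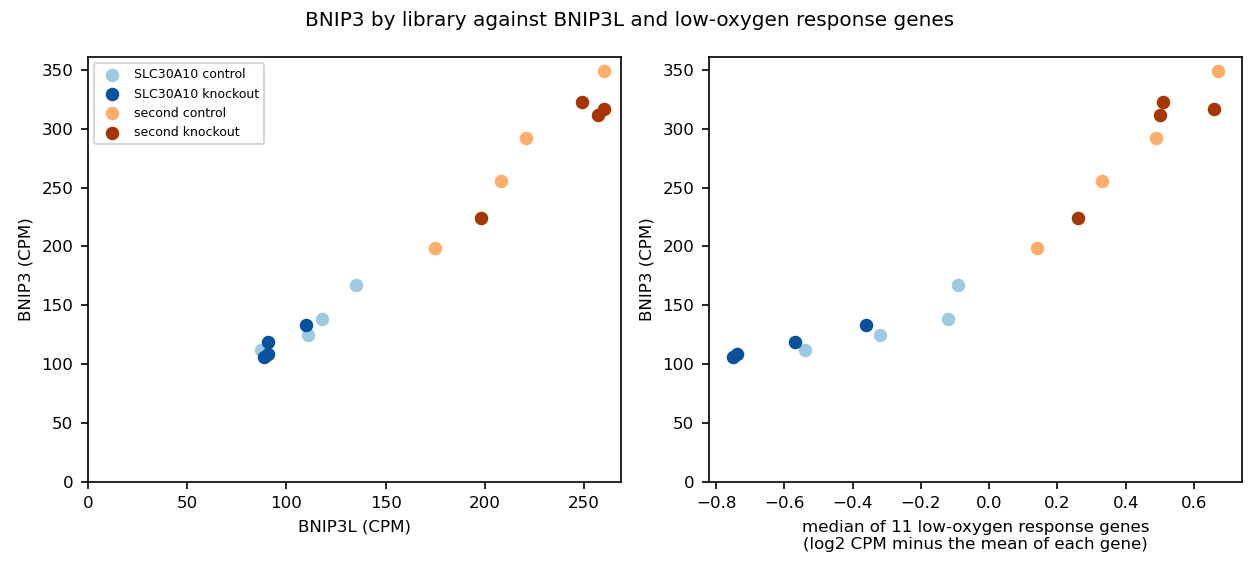
BNIP3 level (CPM) in each of the 16 libraries against the BNIP3L level (CPM, left) and against the median of 11 low-oxygen response genes (log2 CPM minus each gene's mean over libraries, right). Points are libraries coloured by group; those of the SLC30A10 experiment end at 167 CPM of BNIP3 and those of the second experiment begin at 199 CPM.

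FUNDC1, an outer membrane receptor that binds ATG8 proteins, was called in both knockouts in opposite directions. FUNDC1 (X:44523639-44543001, minus strand) stood at 25.0, 26.1, 26.6 and 26.1 CPM in the SLC30A10 control and at 32.5, 33.8, 34.4 and 33.9 CPM in the knockout. It stood at 25.9, 24.1, 24.4 and 27.2 CPM in the second control and at 23.4, 20.2, 22.5 and 21.5 CPM in the second knockout. All 4 SLC30A10 knockout libraries lay above all 8 control libraries, and all 4 of the second knockout lay below them. The rise was 0.38 ± 0.058 (edgeR adjusted p = 7.58e-06) and the fall was -0.215 ± 0.060 (edgeR adjusted p = 0.0163). The 2 effects differed by 0.59 ± 0.084 (edgeR adjusted p = 3.82e-06), the largest such difference among the members. That fall was no longer called without control replicate 4 (-0.18, edgeR adjusted p = 0.0827) or knockout replicate 2 (-0.17, edgeR adjusted p = 0.0876).

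The rise of FUNDC1 in the SLC30A10 knockout was shared by the genes around it on the X chromosome. Of the 20 tested genes nearest to it, 10 on each side, 19 had positive values, with a median log2 fold change of 0.40. FUNDC1 minus that median was -0.029, and with 5 genes on each side it was 0.061. In the second knockout the median of its neighbours was -0.020.

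BCL2L13, an outer membrane receptor of the BCL2 family, fell only in the SLC30A10 knockout. BCL2L13 (22:17628855-17730855, plus strand) stood at 71.8, 70.9, 71.2 and 76.0 CPM in the control and at 58.0, 60.0, 62.6 and 57.6 CPM in the knockout, and at 73.3 to 82.1 CPM in the 8 libraries of the second experiment. No other group overlapped the SLC30A10 knockout. The change was -0.28 ± 0.045 (edgeR adjusted p = 1.26e-05), and it differed from that in the second knockout by -0.27 ± 0.063 (edgeR adjusted p = 0.00163). Among the remaining receptors FKBP8, PHB and PHB2 were not called in either knockout. FKBP8 lay at 191 to 205 CPM in the SLC30A10 knockout, below all 8 control libraries (207 to 260 CPM), with a change of -0.084 ± 0.045 against its own control. PHB (prohibitin, of the inner membrane) was higher in the SLC30A10 control than in the second, by 0.26 ± 0.045 (edgeR adjusted p = 7.31e-05), and shares 47% of its exonic bases with another annotated gene.

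Genes of mitochondrial dynamics changed little. OPA1, which fuses inner membranes, rose by 0.19 ± 0.039 in the SLC30A10 knockout (edgeR adjusted p = 0.000264), from 196 to 209 CPM in the control to 225 to 237 CPM. Its neighbours had a median of -0.16. MFN2, which fuses outer membranes, fell by 0.12 ± 0.040 (edgeR adjusted p = 0.0196), from 178 to 202 CPM to 170 to 173 CPM, and its relative MFN1 had -0.11 ± 0.051 (edgeR adjusted p = 0.0771). In the second experiment MFN2 lay at 145 to 166 CPM, so that the SLC30A10 control was the high group. RHOT1 (Miro1), which couples mitochondria to motor proteins, rose by 0.17 ± 0.053 (edgeR adjusted p = 0.0143), while RHOT2 had -0.062 ± 0.048. For RHOT1 the SLC30A10 control was the low group, at 50.1 to 57.4 CPM, and the second experiment lay at 62.4 to 71.0 CPM. None of the fission genes DNM1L (the dynamin that cuts the organelle), FIS1 and MFF (its membrane anchors) was called in any of the 4 comparisons by edgeR or DESeq2. At an unadjusted p under 0.05 there was 1, MFF between the control sets (0.10 ± 0.045, edgeR adjusted p = 0.0744). Their changes in the knockouts lay between -0.057 and 0.005. At an SE of 0.036 to 0.047, changes of that size could not be told from 0.

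The deubiquitinases moved apart in the SLC30A10 knockout. USP8 (15:50424380-50514419, plus strand), best known from the sorting of endosomal cargo, stood at 67.6, 73.2, 64.8 and 67.1 CPM in the control and at 80.5, 85.8, 78.1 and 74.8 CPM in the knockout, without overlap. It rose by 0.23 ± 0.047 (edgeR adjusted p = 0.00031). In the second experiment its control lay at 75.9 to 76.8 CPM, within the range of the SLC30A10 knockout. USP15, which opposes the ubiquitination of mitochondria, fell by 0.20 ± 0.053 (edgeR adjusted p = 0.00359), from 62.2 to 67.9 CPM to 51.0 to 60.2 CPM. For USP15 the second experiment lay at 49.8 to 56.6 CPM, so that the SLC30A10 control was the high group. USP30, which is anchored in the outer membrane, had 0.10 ± 0.063. None of the deubiquitinases was called in the second knockout, where values lay between -0.051 and -0.031.

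Of the voltage-dependent anion channels, abundant pores of the outer membrane, VDAC1 fell in the SLC30A10 knockout by 0.17 ± 0.037 (edgeR adjusted p = 0.000618), from 417 to 443 CPM to 374 to 387 CPM. The 8 libraries of the second experiment lay at 395 to 439 CPM. VDAC2 and VDAC3 had -0.008 and -0.018 and were not called in any comparison.

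**Figure D3:**
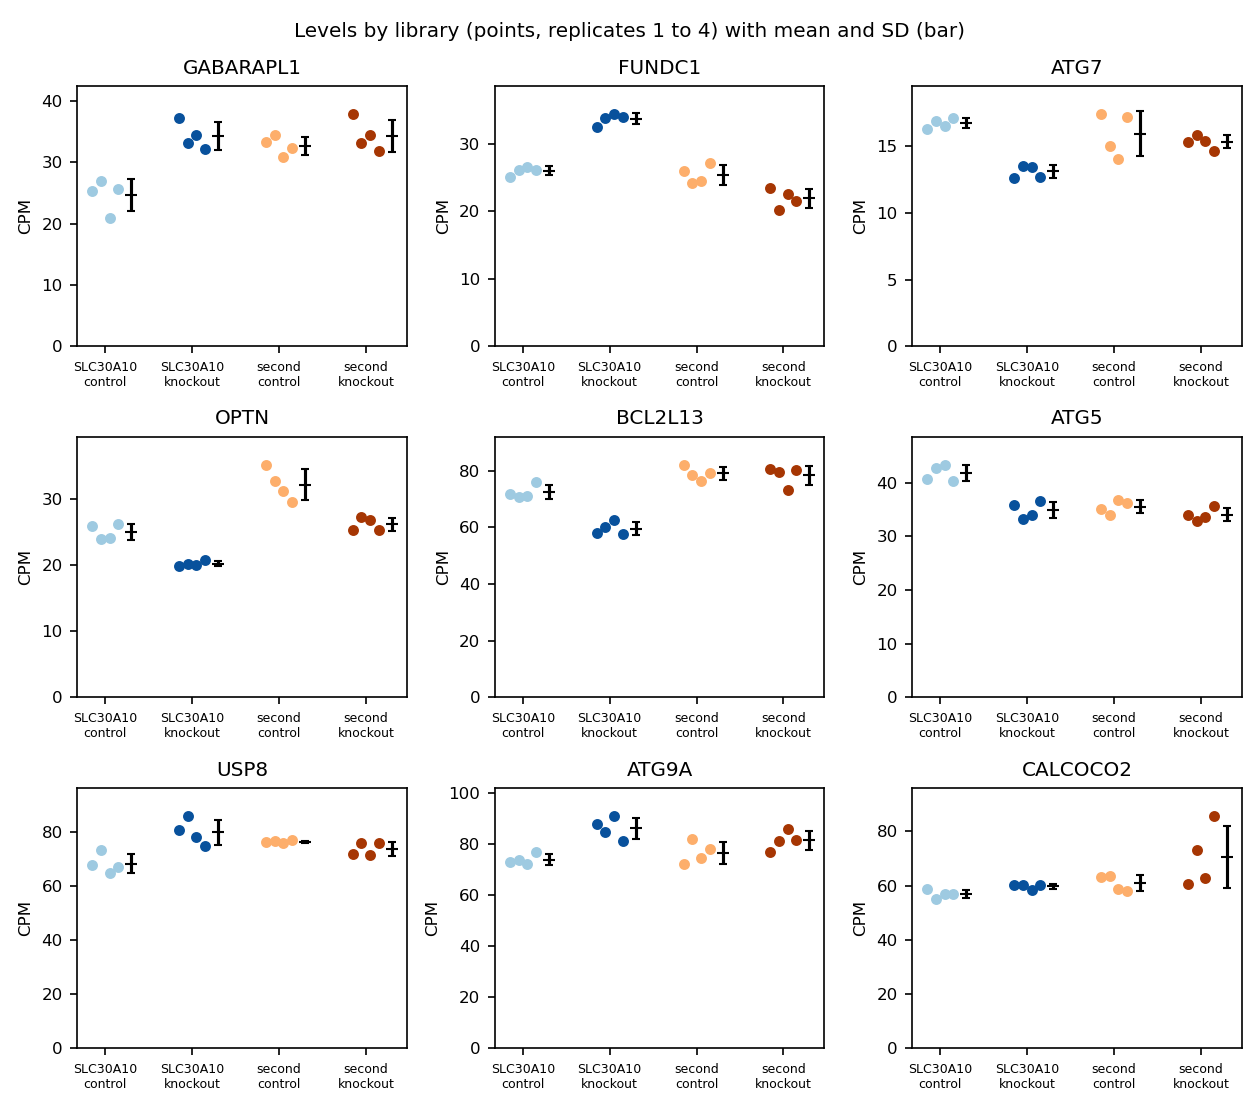
Level (CPM) of 9 members in each library, in 4 groups; points are replicates 1 to 4 from left to right and the bar gives the mean and SD. GABARAPL1 is low in the SLC30A10 control alone (20.9 to 26.9 CPM), ATG7 and BCL2L13 are low in the SLC30A10 knockout, and 1 library of the second knockout sets CALCOCO2 apart at 85.7 CPM.

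Core autophagy began with the initiation genes. ATG9A, the membrane protein of the vesicles that seed the autophagosome, stood at 72.9, 73.6, 72.2 and 77.0 CPM in the SLC30A10 control and at 87.7, 84.6, 91.0 and 81.2 CPM in the knockout. The groups did not overlap, and the rise was 0.22 ± 0.048 (edgeR adjusted p = 0.000533). ATG9A (2:219219380-219229717, minus strand) shares 43.5% of its exonic bases with AC068946.2 on the same strand, so its reads may not be its own. ATG13, a subunit of the ULK1 kinase complex, fell by 0.17 ± 0.041 in the SLC30A10 knockout (edgeR adjusted p = 0.00158), while the kinase ULK1 had -0.029 ± 0.064 there and 0.14 ± 0.062 in the second knockout, neither called. In the lipid kinase complex that marks the forming membrane, ATG14 fell by 0.19 ± 0.063 in the SLC30A10 knockout (edgeR adjusted p = 0.017), and WIPI2, which reads the lipid mark, fell by 0.13 ± 0.043 (edgeR adjusted p = 0.0161). The catalytic subunit PIK3C3 and its partner BECN1 had -0.023 and -0.052 and were not called in either knockout.

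The conjugation genes ATG7 and ATG5 fell in the SLC30A10 knockout. ATG7, the E1-like enzyme that activates both ubiquitin-like proteins of autophagy, stood at 16.3, 16.9, 16.5 and 17.1 CPM in the control and at 12.6, 13.5, 13.4 and 12.7 CPM in the knockout. All 4 knockout libraries lay below all 12 others, of which the lowest held 14.0 CPM. The change was -0.35 ± 0.074 (edgeR adjusted p = 0.000389). It differed from that in the second knockout by -0.29 ± 0.104 (edgeR adjusted p = 0.0336), and by DESeq2 that difference had an adjusted p of 0.053. The difference also lost its call without SLC30A10 knockout replicate 1 or 4, second control replicate 2 or 3, or second knockout replicate 2 (edgeR adjusted p from 0.0555 to 0.0741). ATG7 (3:11272309-11557665, plus strand) has 32.2% of its exonic bases antisense to VGLL4, which itself had -0.15 (edgeR adjusted p = 0.0364). Whether the counting used strand is not stated.

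ATG5, part of the complex that attaches ATG8 proteins to lipid, stood at 40.7, 42.7, 43.3 and 40.3 CPM in the SLC30A10 control and at 35.9, 33.2, 34.0 and 36.5 CPM in the knockout. The second experiment lay at 32.9 to 36.7 CPM, so that the SLC30A10 control was the high group. The change was -0.26 ± 0.052 (edgeR adjusted p = 0.000216), and against both control sets pooled it was -0.15 (edgeR adjusted p = 0.0899). ATG5 (6:106045423-106325791, minus strand) had neighbours with a median of -0.20. Relative to them its change was -0.060 with 10 genes on each side and 0.15 with 5. ATG16L1, the third member of that complex, had -0.062 ± 0.065.

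The ATG8 family members of the set, which coat the growing membrane and bind the receptors, included the largest rise. GABARAPL1 (12:10212458-10223130, plus strand) stood at 25.4, 26.9, 20.9 and 25.6 CPM in the SLC30A10 control and at 37.3, 33.2, 34.4 and 32.1 CPM in the knockout. It stood at 33.3, 34.4, 30.9 and 32.3 CPM in the second control and at 37.9, 33.1, 34.4 and 31.8 CPM in the second knockout. The SLC30A10 control lay below all 12 other libraries, and the SLC30A10 knockout overlapped both groups of the second experiment. The rise was 0.47 ± 0.072 (edgeR adjusted p = 6.7e-06), and it differed from that in the second knockout by 0.40 ± 0.100 (edgeR adjusted p = 0.00283). The control sets differed by -0.40 ± 0.072 (edgeR adjusted p = 9.08e-05), and with both control sets pooled the rise was 0.26 and no longer passed (edgeR adjusted p = 0.0601). GABARAP and GABARAPL2 had changes between -0.10 and 0.023 in the knockouts and were not called there. All 3 genes were lower in the SLC30A10 control than in the second control. GABARAP shares 42.9% of its 100-base windows with other genes, so its level is uncertain.

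Since the control sets differed for 20 members, each knockout was also set against all 8 control libraries. Against its own control, the SLC30A10 knockout was separated without overlap for 19 members (47.5%; all genes 38.3%), the second knockout for 3 (7.5%; all genes 16.3%), and the control sets from each other for 20 (all genes 36.3%). Against all 8 control libraries the SLC30A10 knockout was separated for 10 members (all genes 20.6%). TBK1, FUNDC1 and OPA1 lay above every control (background 10.3%), and OPTN, FKBP8, BCL2L13, VDAC1, ATG13, WIPI2 and ATG7 lay below (background 10.3%). The second knockout was separated for 1 member (all genes 9.34%), FUNDC1, which lay below every control (background 4.75%). With the control sets pooled in the fit, 16 members were called in the SLC30A10 knockout, of which 12 were called in the same direction against its own control. NBR1, MFN2, RHOT1, USP15, ATG5 and GABARAPL1 dropped out, and BNIP3, BNIP3L, FKBP8 and GABARAP came in. The second knockout then had 6 called members, 2 of them also against its own control. OPTN dropped out, and SQSTM1, PHB, MFN2 and ULK1 came in.

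The 2 knockout effects differed for 11 members (27.5%), against 31.3% of all genes. Of these, 5 had the higher value in the SLC30A10 knockout (background 16.7%): FUNDC1, GABARAPL1, USP8, OPA1 and NBR1. The other 6 had the lower value there (background 14.6%): BNIP3L, ATG7, BCL2L13, ATG14, ATG5 and VDAC1. For ATG14 and ATG5 the edgeR adjusted p was 0.0459 and 0.0421. The lower calls were the less stable: DESeq2 called 7 members, 5 higher and 2 lower. With the replicate number as a block, edgeR called 9, 5 higher and 4 lower. FUNDC1, at 0.59, was the only member past a fold change of 1.5 in edgeR's test of the difference. Its 20 neighbours had a median difference of 0.43, with 19 of them positive, and FUNDC1 minus that median was 0.158. Called members numbered 2 in both knockouts (OPTN and FUNDC1), 16 in the SLC30A10 knockout and not the second, 1 in the second and not the SLC30A10 knockout, and 21 in neither.

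**Figure D4:**
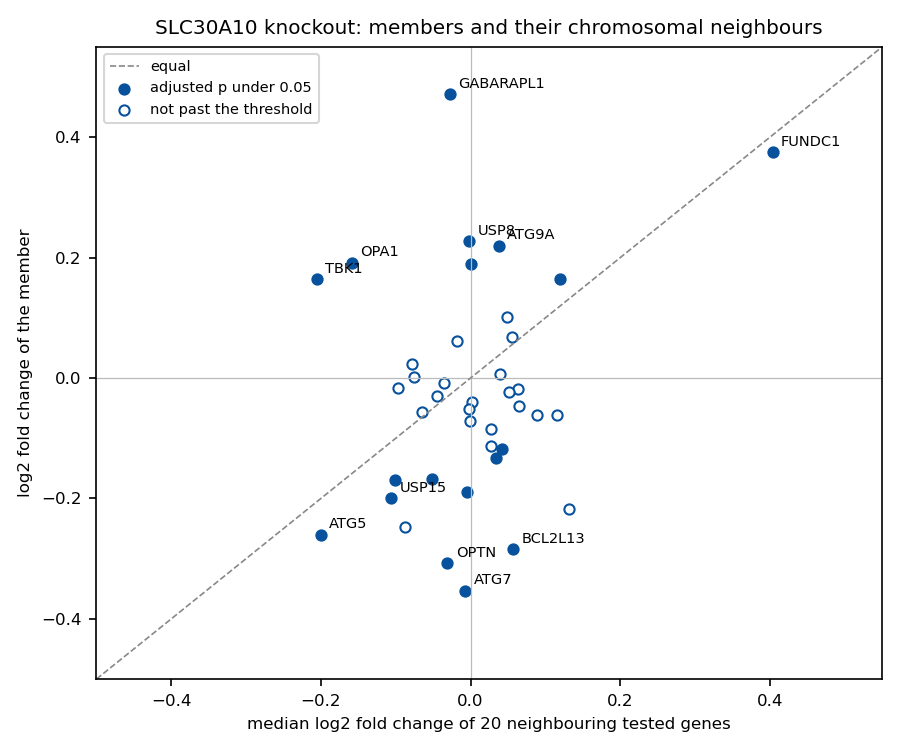
Log2 fold change of each member in the SLC30A10 knockout against the median log2 fold change of the 20 tested genes nearest to it on its chromosome; filled points passed an adjusted p of 0.05 and the dashed line marks equal values. FUNDC1 lies on the line at 0.40 on the horizontal axis and ATG5 near it at -0.20, while GABARAPL1, ATG7, OPTN and USP8 have neighbours near 0.

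Neighbouring genes were compared because stretches of a chromosome can move together in a cell line derived from 1 cell. Apart from FUNDC1 and ATG5, the members with the largest changes in the SLC30A10 knockout had neighbours near 0. These medians were -0.028 for GABARAPL1, -0.007 for ATG7, -0.031 for OPTN, 0.057 for BCL2L13, -0.002 for USP8 and 0.038 for ATG9A. The contribution of copy number was not tested.

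Further genes of the same pathways, listed with earlier results of these data known, are read against the same backgrounds of 41.4% and 13.7%. Of 31 tested further autophagy genes, 5 rose and 7 fell in the SLC30A10 knockout (38.7%), and 2 rose and 1 fell in the second (9.68%). HDAC6, a deacetylase that moves ubiquitinated cargo, rose by 0.58 ± 0.050 (edgeR adjusted p = 3.82e-10), from 66.6 ± 3.69 to 99.6 ± 1.68 CPM (SD, n = 4). It lies in a stretch where 20 of 20 neighbours had positive values (median 0.37). MAP1LC3B, the ATG8 protein most used as a marker of autophagosomes, fell by 0.41 ± 0.044 (edgeR adjusted p = 2.24e-08), from 117 ± 3.08 to 88.1 ± 1.7 CPM (SD, n = 4). Of its 20 neighbours 1 had a positive value (median -0.54). MAP1LC3B2, a near-identical copy of it whose reads may be shared, fell by 0.47 ± 0.097 (edgeR adjusted p = 0.00033). In the second knockout SNAP29, a fusion protein of autophagosomes, fell by 0.19 ± 0.049 (edgeR adjusted p = 0.00731), while the ATG8 protease ATG4B and the ubiquitin-like ATG12 rose by 0.17 ± 0.050 (edgeR adjusted p = 0.0199) and 0.15 ± 0.049 (edgeR adjusted p = 0.0347). With pooled controls ATG4B had 0.13 and no longer passed (edgeR adjusted p = 0.0765). SNAP29 and ATG4B were also called in the SLC30A10 knockout, each in the opposite direction. The values were 0.151 ± 0.048 for SNAP29 (edgeR adjusted p = 0.0137) and -0.178 ± 0.050 for ATG4B (edgeR adjusted p = 0.00575). Their knockout effects, SLC30A10 minus second, differed by 0.345 ± 0.069 (edgeR adjusted p = 0.000327) and -0.35 ± 0.071 (edgeR adjusted p = 0.000381).

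Among 21 tested further genes of mitochondrial dynamics and transport, 4 rose and 6 fell in the SLC30A10 knockout (47.6%), and 2 rose and none fell in the second (9.52%). GDAP1, a fission factor of the outer membrane, fell by 0.43 ± 0.075 (edgeR adjusted p = 4e-05). OMA1, the stress-activated protease that cleaves OPA1, fell by 0.36 ± 0.071 (edgeR adjusted p = 0.000193). ARMCX3, a mitochondrial protein encoded on the X chromosome, rose by 0.39 ± 0.059 (edgeR adjusted p = 7.53e-06), with 19 of 20 neighbours positive (median 0.45). PLD6, a phospholipase-like protein of the outer membrane, and TRAK1, an adaptor of mitochondrial transport, rose in the second knockout by 0.18 ± 0.053 (edgeR adjusted p = 0.0216) and 0.145 ± 0.041 (edgeR adjusted p = 0.0166). PLD6 lay at 47.7 CPM there, between the second control (42.1 CPM) and the SLC30A10 control (53.2 CPM), and against both control sets pooled its value was 0.003 (edgeR adjusted p = 0.986). TRAK1 was also called higher in the SLC30A10 knockout, by 0.16 ± 0.042 (edgeR adjusted p = 0.00293). Against both control sets pooled it had 0.088 there (edgeR adjusted p = 0.154) and 0.214 in the second knockout (edgeR adjusted p = 0.00285).

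Of 14 regulators of autophagy genes, 1 rose and 4 fell in the SLC30A10 knockout (35.7%). TFE3, a transcription factor for lysosomal and autophagy genes, rose by 0.51 ± 0.046 (edgeR adjusted p = 1.01e-09) within a stretch of risen neighbours (20 of 20 positive, median 0.48). Its relative MITF fell by 0.62 ± 0.110 (edgeR adjusted p = 5.5e-05) from 8.01 ± 0.822 to 5.22 ± 0.354 CPM (SD, n = 4). FOXO1, a transcription factor of autophagy genes, fell by 0.46 ± 0.056 (edgeR adjusted p = 2.05e-07), and 3 of its 20 neighbours had positive values (median -0.152). MITF was the 1 regulator called in the second knockout, with a rise of 0.35 ± 0.109 over its own control (edgeR adjusted p = 0.0294). Its mean there, 7.31 CPM, lay between those of the second control (5.72 CPM) and the SLC30A10 control (8.01 CPM), which differed by 0.48 ± 0.108 (edgeR adjusted p = 0.000865). Against both control sets pooled the value was 0.091 and did not pass (edgeR adjusted p = 0.651). The 2 knockout effects on MITF, each against its own control, differed by -0.97 ± 0.155 (edgeR adjusted p = 2.04e-05).

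Levels of different members can be compared only per length. Per kilobase of exonic sequence, the mean over the 16 libraries was highest for PHB2 (267 CPM per kb), followed by VDAC1 (190), VDAC3 (116), FKBP8 (114) and PHB (107). BNIP3 has no single place in this order: its group means were 47.4 and 40.8 CPM per kb in the control and knockout of the SLC30A10 experiment and 95.8 and 103 CPM per kb in those of the second. GABARAP lay between 64.2 and 78.3 CPM per kb in the 4 groups, above BNIP3 in the first experiment and below it in the second. The lowest were USP8 (3.92), USP15 (3.46), ATG7 (3.07) and PIK3C3 (2.89 CPM per kb). Exonic length counted once each base lying in any exon of a gene in the basic GENCODE annotation. Such a length lowers this value for genes with many rarely used exons.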

How the data were processed

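Poly-A RNA of 16 HAP1 libraries (4 groups of 4, by the genotype and titles in the labels) was analysed from the deposited count table, which holds whole-number counts per gene symbol. HISAT2, featureCounts, DESeq2 and the build GRCh38 (hg38) are named, without versions or roles, per the submitters' processing notes; annotation and use of strand are not given in the sources used here. A second deposited table holds normalized signal, each column being the count column times a constant (within 5.06e-06 counts), and these constants served as an alternative scaling. One gene, deleted in the second knockout, is not reported here.

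Counts were tested in edgeR 4.0.16 (R 4.3.3): a filter with a minimum count of 10 and total of 15 left 15569 genes, libraries were scaled by TMM, and quasi-likelihood F tests were made on the means of the 4 groups over all 16 libraries. P-values were adjusted by Benjamini-Hochberg over all tested genes, with 0.05 as threshold. The procedure was tested on simulated data. Replicate pairs all differed by more than sampling noise. Positions, exonic lengths and overlaps come from GENCODE release 29, neighbours from RefSeq order (90.9% of tested genes placed), and promoter sequences from RefSeq (GRCh38.p14). The floor of 3 counts covers counting error only.

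The members and lists were chosen with earlier results of these data known. Full statistics were given for the called members with the largest changes: up to 8 in the SLC30A10 knockout, 6 in the second, 4 in the difference and 4 between the control sets. Other members were described by role, and up to 3 called genes per further list and knockout were named. Values of TBK1, SQSTM1, FKBP8, PHB and other members described by role are given as examples, and the genes raised by low oxygen were chosen after values were seen. Alternatives were median-of-ratios, deposited and library-total scaling, DESeq2 1.42.0, no filter or a mean count of 50, an adjusted p of 0.01, a fold change of 1.5, only the libraries compared, pooled controls, a replicate block, other numbers of neighbours, and leaving out each library.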

Additional observations from a re-analysis of the deposited data

Results flagged for a closer look

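In each of the 160 groups of 4 libraries (40 members in 4 groups), the highest or lowest library was compared with the others by Dixon's ratio, and 12 stood apart where chance gives about 8 (1 in 20). In the SLC30A10 knockout these were CALCOCO2 in replicate 3 (58.2 CPM, low), TBK1 in replicate 2 (45.6 CPM, high), BNIP3L in replicate 2 (110 CPM, high), ULK1 in replicate 2 (44.5 CPM, low) and VDAC2 in replicate 1 (166 CPM, high). In the SLC30A10 control it was MFN1 in replicate 2 (63.2 CPM, low), and in the second control ATG16L1 in replicate 4 (31.4 CPM, high). In the second knockout they were BNIP3 in replicate 4 (224 CPM, low), BCL2L13 in replicate 3 (73.3 CPM, low), RHOT2 in replicate 3 (166 CPM, high), and VDAC2 and VDAC3 in replicate 1 (165 CPM each, high).

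For 11 members the 2 knockout effects differed by edgeR's test of the difference itself. The log2 difference, SLC30A10 knockout effect minus second knockout effect, was 0.59 for FUNDC1, 0.40 for GABARAPL1, 0.28 for USP8, 0.26 for OPA1 and 0.20 for NBR1 (edgeR adjusted p = 0.0329). It was -0.41 for BNIP3L, -0.29 for ATG7, -0.27 for BCL2L13, -0.23 for ATG14, -0.20 for ATG5 and -0.19 for VDAC1. FUNDC1 alone was called in both knockouts in opposite directions.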

How the results depend on the processing

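Counts of called members depended on the threshold more than on the scaling. With a fold change of at least 1.5 they were 0 in the SLC30A10 knockout, 0 in the second, 1 for the difference (FUNDC1) and 2 between the control sets (BNIP3 and BNIP3L). At an adjusted p under 0.01 there was 1 in the second knockout and 6 for the difference, against 3 and 11 at 0.05. Without the filter on low counts the second knockout had 5, with both control sets pooled 6, and DESeq2 called 7 for the difference. Leaving out 1 library gave 1 to 5 members in the second knockout (1 without control replicate 4 or knockout replicate 2, 5 without knockout replicate 1) and 7 to 12 for the difference (7 without SLC30A10 knockout replicate 3 or second control replicate 2). With pooled controls, the second knockout had 6 further autophagy genes called (5 higher, 1 lower) and 5 further dynamics genes (1 higher, 4 lower, against 2 higher and 0 lower with its own control). With the replicate number as a block, members called were 19, 3, 9 and 20 in the SLC30A10 knockout, the second knockout, the difference and the control sets, and 5 regulators differed between the control sets, against 3. Deviations of same-numbered libraries correlated by -0.0318, 0.0472 and 0.0179 on average, so the replicate block pairs samples by number only. With 5 neighbours on each side, FUNDC1 (0.061) and ATG5 (0.148) exceeded their neighbours, the reverse of the values with 10. The 19 tested changes of named members kept direction and call under each of the 3 other scalings and the block, 17 of 19 under DESeq2, and 161 of 184 when a library was left out, where the other 23 lost the call. With both control sets pooled, which applies to the knockout changes only, 8 kept the call. The other 3 lost it (ATG5 and GABARAPL1 in the SLC30A10 knockout, OPTN in the second). With only the libraries compared, 14 kept the call and 1 lost it, CALCOCO2 in the second knockout. The causes were not tested. At these depths and this spread (common biological coefficient of variation 0.0497), changes of the size of those of the fission genes could not be resolved.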

Other observations

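Motifs of 2 other factors were searched on both strands of the 250 bases before the RefSeq starts. The cAMP response element TGACGTCA, bound by factors of the CREB and ATF families, was present in 1 of the 54 member entries (1.85%), that of GABARAPL1, 30 bases before its start, in 2.35% of the entries of tested genes and in 1.65% of all entries. The FOXO core GTAAACA was present in 1 of the 54 (1.85%), that of CALCOCO2, in 2.13% of the entries of tested genes and in 2.98% of all. The E-box CACGTG known from promoters of lysosomal and autophagy genes was present in the entries of ATG14, BNIP3, TBK1 and VDAC2. In the SLC30A10 knockout, the changes of these 4 genes were -0.19, -0.22, 0.17 and -0.008. ATG14 and TBK1 were called there, in opposite directions, and BNIP3 and VDAC2 were not. The part of the E-box in these changes was not tested.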
